A study of Mus musculus with 69 samples.

Results

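The genes described here are Col6a1 and 9 other collagen and matrix genes of mouse hippocampus and cultured microglia: Col6a2, Col6a3, Col1a1, Col1a2, Col3a1, Col4a1, Col4a2, Sparc and Col8a1. They were chosen by name around the Col6a1 response to gardiquimod, so their gardiquimod responses are descriptions, given with no p, and the calls counted among them support nothing. All 10 were found in each of 3 count tables, among 54532 genes in 2 of them and 54429 in the other. The series, on Tlr7 and sex differences in demyelination, holds 69 libraries of 3' mRNA tags. In the agonist experiment, hippocampus came from WT mice given gardiquimod, an agonist of the RNA sensor TLR7, or saline. Its males were 12.12 months old and its females 9.60 months old, with 7 libraries in each of the groups male gardiquimod, male saline, female gardiquimod and female saline, so sex and age cannot be told apart. In the culture experiment, primary microglia from male or female pups of postnatal days 1 to 3 were TLR7KO (KO below) or WT and received myelin or the solvent DMSO, with 3 libraries in each of 8 groups. In the PSUK experiment, hippocampus of PSUK+ mice, a genotype the labels do not spell out, was taken after a TLR7 inhibitor, which the labels do not name, or control treatment. It had 6 male inhibitor, 3 male control, 5 female inhibitor and 3 female control libraries from mice of 5.50, 6.06 or 6.85 months, and all of these mice carried PSUK+. For 1 control female of 5.50 the label gives no unit of age, and months were assumed. The labels number no hippocampal library, so a replicate number of one is only a name given here. The labels call the molecule nuclear RNA and describe RNA isolation from microglia for every sample, the hippocampal ones included.

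Collagens are secreted proteins of chains wound into a helix, and each type has its own place in the matrix. Collagen VI is built from a chain of Col6a1, a chain of Col6a2 and a long chain such as that of Col6a3, and forms beaded filaments beside basement membranes and around cells. Collagens I and III are the fibrils of connective tissue, made in brain mainly by fibroblasts of the meninges and of larger vessels, whereas collagen IV is the network of vascular basement membranes, and Sparc is a collagen-binding glycoprotein that astrocytes, vascular cells and immature microglia are known to make.

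Col6a1 and Col6a2 lie next to each other in the same orientation on chromosome 10, at chr10:76708792-76726168 and chr10:76595762-76623630 (GRCm38, minus strand), 85.2 kb apart, and Col6a3 lies on chromosome 1, at chr1:90765923-90843971 (minus strand). Their upstream sequences are shown because their chains enter one protein and the first pair had the most alike levels of the genes compared with Col6a1 below. RefSeq promoter windows of GRCm38.p6 were found for 9 of the 10 genes. Those of the collagen VI genes, printed 5′ to 3′ on the gene's strand and only as far as no annotated exon is reached, are chr10:76726169-76726294 for Col6a1 (126 bases, 51.6% G or C), chr10:76623631-76623880 for Col6a2 (250 bases, 59.2%) and chr1:90843972-90844221 for Col6a3 (250 bases, 57.2%). Capitals mark the 1 match found in them, an SP1 GC box read on the other strand.
Col6a1: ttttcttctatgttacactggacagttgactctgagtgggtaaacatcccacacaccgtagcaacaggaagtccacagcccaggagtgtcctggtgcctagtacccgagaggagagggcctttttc
Col6a2: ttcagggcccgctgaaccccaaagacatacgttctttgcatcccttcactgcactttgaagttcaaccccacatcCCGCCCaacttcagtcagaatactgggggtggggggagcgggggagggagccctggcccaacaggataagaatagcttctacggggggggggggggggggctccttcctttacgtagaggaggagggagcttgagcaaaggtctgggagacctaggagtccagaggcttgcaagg
Col6a3: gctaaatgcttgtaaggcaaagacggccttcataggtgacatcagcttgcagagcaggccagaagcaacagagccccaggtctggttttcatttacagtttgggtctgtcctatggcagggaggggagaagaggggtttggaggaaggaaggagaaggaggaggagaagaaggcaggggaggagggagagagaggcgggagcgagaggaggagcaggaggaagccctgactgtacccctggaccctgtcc
Both strands were searched for the SP1 GC box, spelled GGGCGG, the CCAAT box, the TATA box, spelled TATAAA, the AP-1 site, spelled TGANTCA, and the interferon-stimulated response element, read as a pair of GAAA repeats with any 2 bases between them. Of 32851 windows of 250 bases, 32.7% held the GC box, 33.8% the CCAAT box, 12.4% the TATA box, 6.75% the AP-1 site and 2.98% the interferon-stimulated element. The median window of that length was 52.4% G or C. In windows of 126 bases the shares were 13.5%, 16.9%, 6.26%, 3.24% and 1.63% in the same order, with a median of 50.8% G or C. The stretch of Col6a1 was thus near the median in base content, those of Col6a2 and Col6a3 were above it, and no sequence element searched for was common to the collagen VI genes.

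Library totals were 14332532 to 23477906 counts in the agonist experiment, 15277642 to 21275491 counts in the cultures and 14377831 to 21033158 counts in the PSUK experiment. A level below is given as counts-per-million (CPM) of the library total, and a fold change is a log2 value with its standard error (SE) from edgeR's quasi-likelihood fit. A gene was called where the adjusted p was under 0.05 over all genes tested. Tlr7 was at 1.20 to 2.68 CPM in KO cultures, against 166 to 202 CPM in WT cultures, so each library matched its genotype label. Summed microglial markers were at 3000 to 4617 CPM in the cultures, with neuronal markers at 2.90 to 6.83 CPM. In hippocampus, neuronal markers summed to 3104 to 7764 CPM and microglial ones to 252 to 521 CPM, so the hippocampal libraries carried the markers of whole tissue. Choroid plexus markers, 11 genes led by Ttr, ranged from 43.8 to 6365 CPM over the hippocampal libraries.

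Col6a1 was higher after gardiquimod in males and lower after gardiquimod in females. In males the lowest, median and highest levels were 15.8, 19.9 and 24.7 CPM with gardiquimod, against 9.67, 13.2 and 15.1 CPM with saline. All 7 gardiquimod males stood above all 7 saline males. Such a separation upward was seen in 0.227% of all genes tested in that comparison, and nothing is read from it here since the gene was chosen on this contrast. In females the values were 12.2, 16.2 and 19.4 CPM with gardiquimod, against 16.1, 21.8 and 33.8 CPM with saline. The female groups overlapped, with the highest value, 33.8 CPM, in saline female replicate 4. The fitted change was 0.72 ± 0.15 in males and -0.54 ± 0.14 in females, and the female minus male difference was -1.26 ± 0.20 (log2 ± SE). Without saline female replicate 4 the female change was -0.41 and the difference -1.13. In bulk tissue, more cells of a type and more RNA per cell cannot be told apart.

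**Figure D1:**
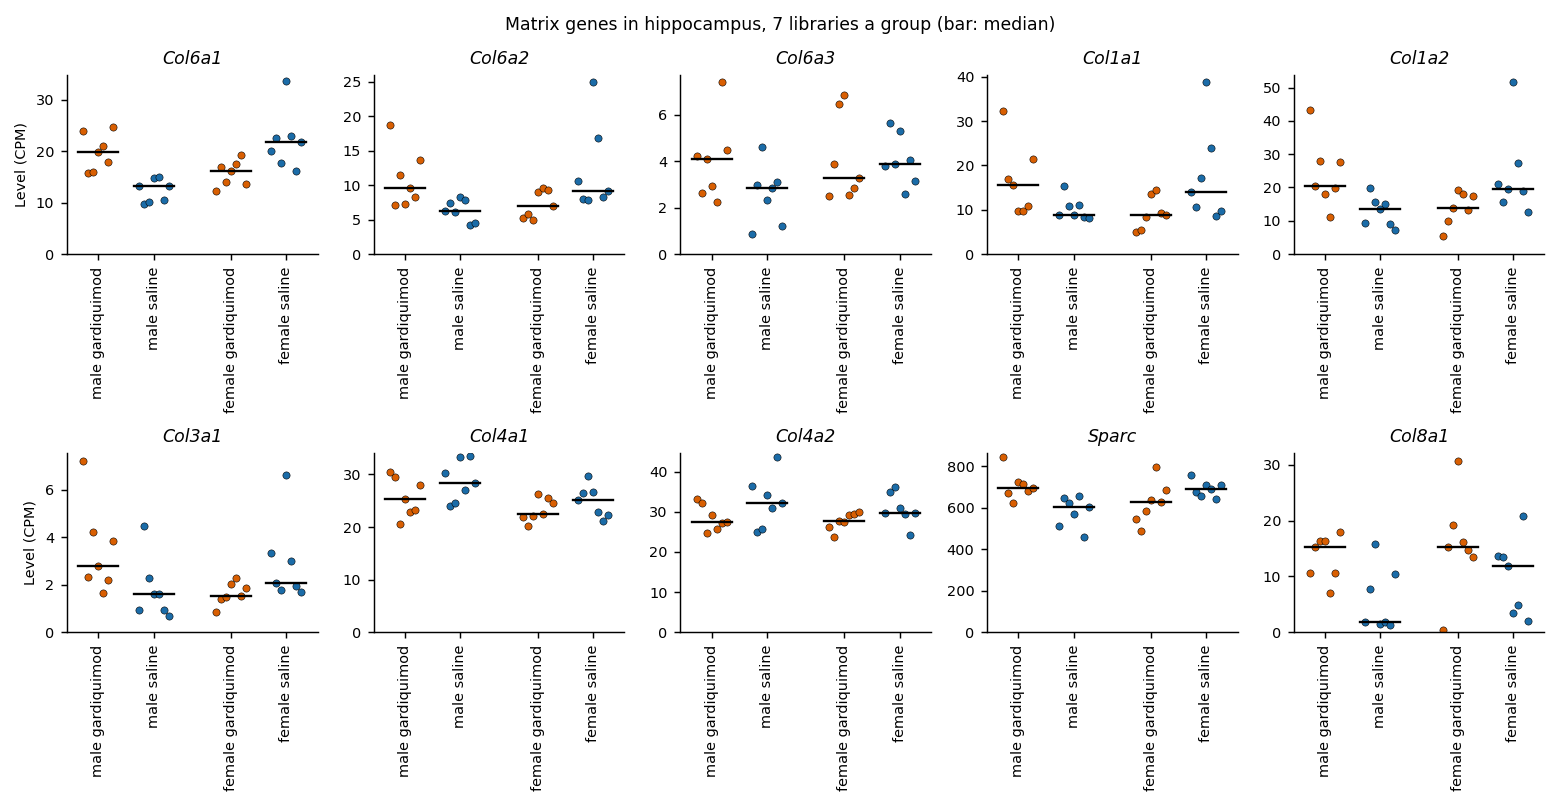
Levels of the 10 genes in CPM (vertical axis) in each hippocampal library of the agonist experiment, with gardiquimod in orange and saline in blue, males left and females right; the horizontal bar is the group's median. Col6a1 shows male gardiquimod libraries at 15.8 to 24.7 CPM, all above the male saline ones, and a female saline library at 33.8 CPM.

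Of its chain partners, Col6a2 followed the same pattern with more spread and Col6a3 did not show it in females. Col6a2 was at 7.14, 9.58 and 18.7 CPM (lowest, median, highest) in gardiquimod males, against 4.28, 6.29 and 8.25 CPM in saline males. In females it was at 4.88, 6.94 and 9.64 CPM with gardiquimod, against 7.82, 9.12 and 25.0 CPM with saline. The groups of Col6a2 overlapped in both sexes, and its changes were 0.79 ± 0.28 in males and -0.78 ± 0.27 in females. Col6a3 was at 2.23, 4.09 and 7.40 CPM in gardiquimod males, against 0.879, 2.84 and 4.60 CPM in saline males, a change of 0.65 ± 0.31. In females Col6a3 was at 2.51, 3.29 and 6.86 CPM with gardiquimod, against 2.58, 3.88 and 5.64 CPM with saline, and its change of -0.05 ± 0.30 was smaller than its SE. The Col6a1 share of all collagen VI counts in a library had a median of 57.7% in gardiquimod males, 58.5% in saline males, 58.9% in gardiquimod females and 58.1% in saline females. The ranges of that share, 50.9% to 66.1%, 48.1% to 69.7%, 50.5% to 63.5% and 52.7% to 64.0% in the same order, overlapped throughout.

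The fibrillar collagens moved in the same directions as Col6a1 but with wider spread. Col1a1, a chain of collagen I, was at 9.63, 15.5 and 32.4 CPM in gardiquimod males, against 8.11, 8.92 and 15.3 CPM in saline males. Its levels in females were 5.02, 8.80 and 14.5 CPM with gardiquimod, against 8.55, 14 and 38.9 CPM with saline. The groups overlapped in both sexes. Col1a2, the partner chain of collagen I, was at 11.2, 20.4 and 43.1 CPM in gardiquimod males, against 7.16, 13.6 and 19.8 CPM in saline males. In females Col1a2 was at 5.43, 13.8 and 19.3 CPM with gardiquimod, against 12.6, 19.6 and 51.6 CPM with saline. Gardiquimod male replicate 1 and saline female replicate 4 held the highest Col1a2 levels of their groups. Col3a1, the chain of collagen III, reached 7.22 CPM in gardiquimod males (median 2.81), against 4.49 CPM in saline males (median 1.59). It reached 2.28 CPM in gardiquimod females (median 1.52), against 6.63 CPM in saline females (median 2.09). The changes in males were 0.73 ± 0.34 for Col1a1, 0.93 ± 0.33 for Col1a2 and 0.96 ± 0.38 for Col3a1, and in females -0.94 ± 0.34, -0.81 ± 0.32 and -0.86 ± 0.38 in the same order. The fold changes of these genes were as large as that of Col6a1, and their SEs were over 2 times its own.

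Collagen IV of the vessel wall showed no such split between the sexes. Col4a1 was at 20.5, 25.3 and 30.5 CPM in gardiquimod males, against 24.1, 28.4 and 33.4 CPM in saline males. In females Col4a1 was at 20.2, 22.5 and 26.3 CPM with gardiquimod, against 21.2, 25.2 and 29.7 CPM with saline. These ranges overlapped widely, with changes of -0.13 ± 0.10 in males and -0.14 ± 0.10 in females. Col4a2, its partner chain, changed by -0.16 ± 0.11 in males and -0.20 ± 0.10 in females, with medians of 27.4 CPM with gardiquimod against 32.3 CPM with saline in males, and 27.7 CPM with gardiquimod against 29.6 CPM with saline in females. Col4a1 (chr8:11198423-11312826, minus strand) and Col4a2 (chr8:11312805-11449287, plus strand) lie head to head and share 22 bases at their starts, far from the 3' ends that the tags read. An antisense gene lies over each of them (Gm15418 and Gm15419), and whether counting used strand is not given in the sources used here.

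Sparc was at 621, 696 and 845 CPM in gardiquimod males, against 461, 605 and 658 CPM in saline males, a change of 0.31 ± 0.10. In females it was at 486, 628 and 794 CPM with gardiquimod, against 643, 690 and 756 CPM with saline, a change of -0.19 ± 0.10. Its direction in each sex was that of Col6a1, with ranges that overlapped. Astrocyte markers leaned the same way, with 7 of 8 above 0 in males (median 0.16) and 7 of 8 below 0 in females (median -0.11). Their summed level was 8253 to 11447 CPM in gardiquimod males, against 8868 to 9907 CPM in saline males, and 6651 to 10050 CPM in gardiquimod females, against 8306 to 10246 CPM in saline females. None of the 8 was called by edgeR in either sex, with 2 in males and 1 in females at an unadjusted p under 0.05, and DESeq2 called 1 in males and 0 in females. The part of astrocyte content in the Sparc values was not tested. Col8a1, a short-chain collagen made by some vessels and by the choroid plexus, was at 7.13, 15.2 and 18.0 CPM in gardiquimod males, against 1.37, 1.83 and 15.8 CPM in saline males. It was at 0.467, 15.3 and 30.6 CPM in gardiquimod females, against 2.01, 11.9 and 20.9 CPM in saline females. Col8a1 thus fell into a low and a high set of libraries within saline males, and its changes were 1.25 ± 0.60 in males and 0.59 ± 0.57 in females.

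Over the 10 genes, 8 of 10 had a fold change above 0 in males, with a median of 0.73, where 48.3% of all genes tested did, with a median of -0.01. In females 1 of 10 had a fold change above 0, with a median of -0.37, where 51.9% of all genes did, with a median of 0.01. By the call rule, 1 of the 10 (Col6a1) was called by edgeR in males, where 0.221% of all genes tested were called, and 0 of 10 in females, where 0.0232% were called. For the difference between the sexes edgeR called 1 of 17218 genes (0.00581%), Col6a1, whereas DESeq2 called 156 genes, 5 of the 10 among them. The choice of the genes rests on these contrasts, so nothing is read from the counts.

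**Figure D2:**
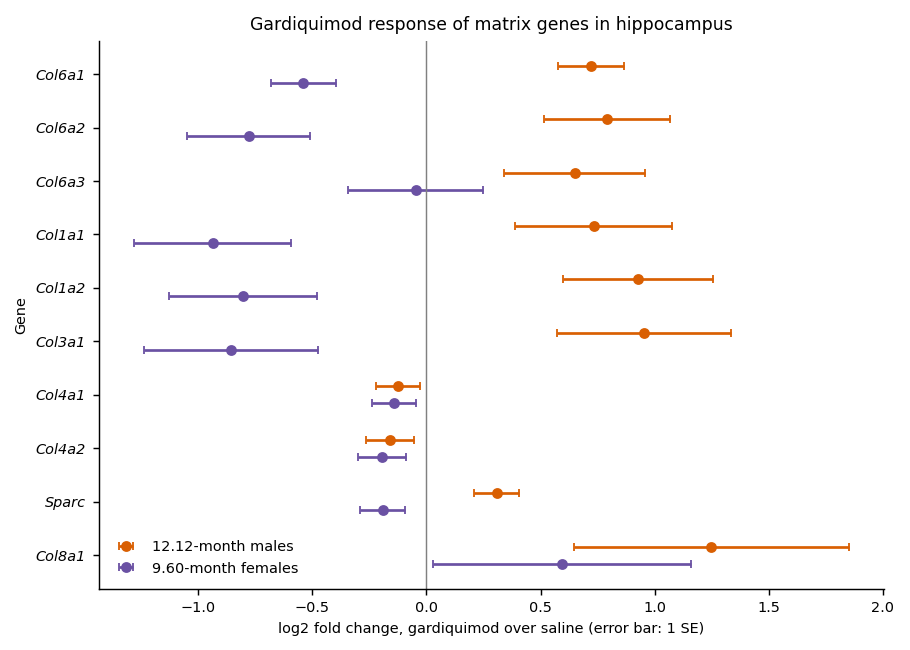
Log2 fold change of gardiquimod over saline (horizontal axis, error bar 1 SE) for the 10 genes in hippocampus, with 12.12-month males in orange and 9.60-month females in purple. Col6a1 is at 0.72 in males and -0.54 in females, while Col4a1 and Col4a2 are between -0.20 and -0.13 in both.

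The 8 low libraries of Col8a1 in the agonist experiment were the 8 lowest in Ttr, the transthyretin gene that marks choroid plexus. Those libraries had at most 214 CPM of Ttr and 0.467 to 4.90 CPM of Col8a1, whereas the other 20 had at least 972 CPM of Ttr and 7.13 to 30.6 CPM of Col8a1. Choroid plexus markers summed to 1246 to 5303 CPM in gardiquimod males, against 173 to 4061 CPM in saline males. Of the saline males, 4 were among the low libraries, and none of the gardiquimod males was. All 11 choroid plexus markers had a fold change above 0 in both sexes, with medians of 1.26 in males and 0.62 in females. None was called by edgeR or DESeq2, and at an unadjusted p under 0.05 edgeR had 1 in males and 0 in females, where 15.8% and 6.06% of all genes were. A like order was seen in the other experiments. In the PSUK experiment the 3 libraries lowest in Ttr (at most 52.7 CPM) were the 3 lowest in Col8a1, at 1.33 to 2.35 CPM against 4.38 to 23.4 CPM in the others. In the cultures the 6 libraries lowest in both were the 6 male KO libraries. With the Ttr level as a covariate, the male gardiquimod change of Col8a1 was 0.27 ± 0.21 and that of Col6a1 was 0.80 ± 0.16.

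**Figure D3:**
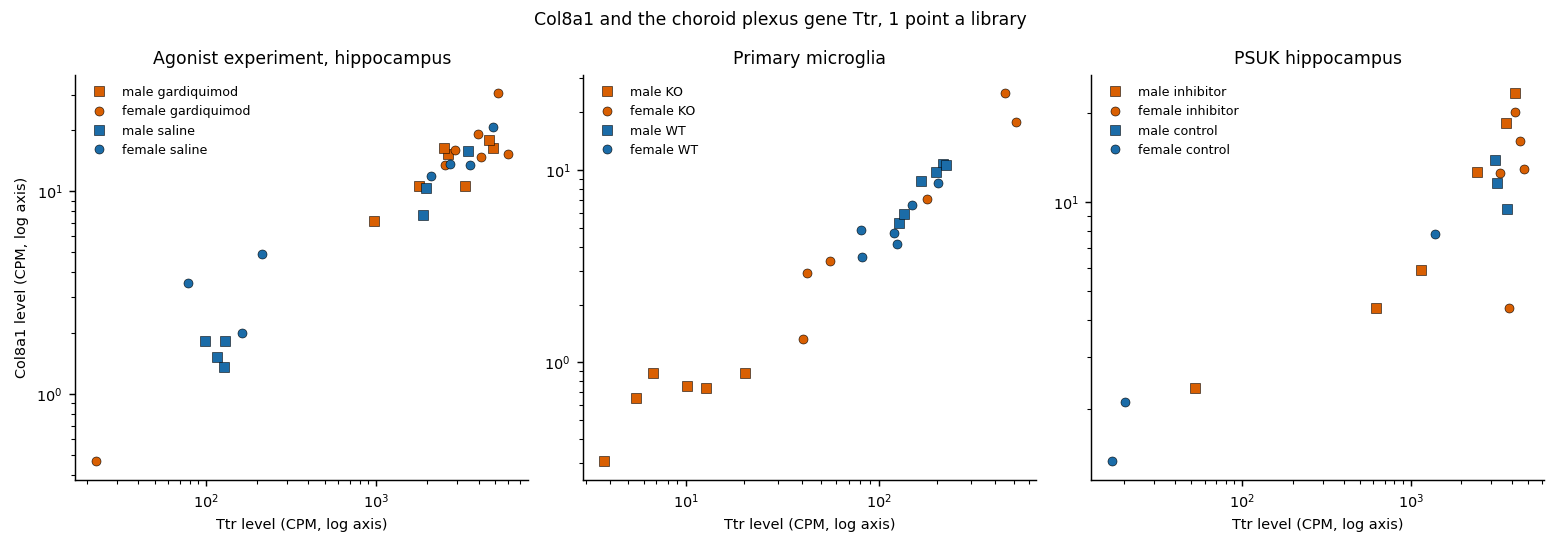
Col8a1 level against Ttr level, both in CPM on log axes, 1 point a library, for the agonist, culture and PSUK experiments; squares are males and circles females, with the treated or KO group in orange and its control in blue. The libraries with the least Ttr also have the least Col8a1, with all 6 male KO cultures at 0.306 to 0.884 CPM of Col8a1.

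Most markers of fibroblasts of the meninges and vessels leaned in the direction of Col6a1 and the fibrillar collagens, less clearly in females. Several of these markers are matrix genes themselves: Lum, Ogn, Aebp1 and Mfap4 are also in the interstitial matrix list below, and Dcn is in that of receptors and binders. Dcn and Aebp1 had the highest median levels of the markers, 43.3 and 25.8 CPM. The marker sum is thus in part a matrix level. In males, 11 of 11 fibroblast markers tested had a fold change above 0 (median 0.67), and in females 9 of 11 were below 0 (median -0.33), with none called in either sex by edgeR or DESeq2. At an unadjusted p under 0.05 edgeR had 9 of them in males, where 15.8% of all genes were, and 1 in females, where 6.06% were. The female count was near the share of all genes, so nothing is read from it. Their summed level was 111 to 217 CPM in gardiquimod males, against 53.0 to 141 CPM in saline males. The sum was 75.7 to 122 CPM in gardiquimod females, against 89.7 to 237 CPM in saline females. Saline female replicate 4, with the highest Col6a1, Col6a2 and Col1a2, also had the highest fibroblast sum, and gardiquimod male replicate 1 had the highest fibroblast sum, Col6a2 and Col1a2 of its group. With the fibroblast sum as a covariate, the male change was 0.52 ± 0.15 for Col6a1, 0.18 ± 0.17 for Col6a2, 0.21 ± 0.21 for Col1a2 and 0.09 ± 0.23 for Col3a1, and the sex difference for Col6a1 was -0.97. Endothelial markers divided evenly in males, 6 above 0 and 6 below, with a median of 0.01. At an unadjusted p under 0.05 edgeR had 2 endothelial markers in males and 0 in females. Of the markers of mural cells of vessels it had 3 in males and 2 in females. The shares of all genes were 15.8% and 6.06%, and neither edgeR nor DESeq2 called any of these markers in either sex. The part of fibroblast content in the collagen responses was not tested.

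Other matrix genes are given by list, some of them (Lum, Ogn, Aebp1, Mfap4 and Dcn) also among the fibroblast markers above. In males, 21 of 32 other collagens tested had a fold change above 0 (median 0.24), as did 14 of 18 genes of the interstitial matrix (median 0.45), 12 of 15 basement membrane genes other than collagens (0.22), 9 of 12 collagen receptors and binders (0.19), 14 of 16 genes of matrix turnover (0.09), 18 of 29 genes of collagen processing (0.04) and 10 of 17 genes of the TGF-beta pathway (0.06). None of these was called by edgeR, which had 7 of the other collagens, 13 interstitial matrix genes, 0 basement membrane genes, 2 receptors and binders, 4 turnover genes, 5 processing genes and 3 TGF-beta genes at an unadjusted p under 0.05, where 15.8% of all genes were. The shares of the processing, receptor and TGF-beta lists were near that of all genes. DESeq2 called 2 interstitial matrix genes, 1 receptor or binder and 1 turnover gene, and 0 in the other lists. In females, 24 of 32 other collagens were below 0 (median -0.17), as were 16 of 18 interstitial matrix genes (-0.20), 12 of 15 basement membrane genes (-0.16) and 10 of 12 receptors and binders (-0.12), again with none called by edgeR or DESeq2. At an unadjusted p under 0.05 edgeR had 6, 0, 2 and 1 of them in the same order, where 6.06% of all genes were. Genes that secrete and modify collagen stood near 0 in both sexes, at a median of 0.01 in females. Glucocorticoid-induced genes were included because several are known to change with handling and stress. In males 12 of 16 were above 0 (median 0.13) and 1 was called, Tsc22d3, a transcriptional regulator induced by glucocorticoids, at 0.48 ± 0.11.

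Saline females and saline males were then compared, which shares the saline libraries with the responses above. Col6a1 was 0.86 ± 0.15 higher in females (log2 ± SE), or 0.74 without saline female replicate 4, and all 7 females stood above all 7 males, as 0.145% of all genes did in that direction. The saline levels entered the contrasts by which the gene was chosen, so a higher level in saline females is partly built in, and nothing is read from its difference or its separation. Over all genes 0.43% were called. None of the other 9, chosen around the same contrasts, was called by edgeR or DESeq2. Of them 5 had an unadjusted p under 0.05 in edgeR, where 8.16% of all genes did, and the smallest adjusted p was 0.188 in edgeR's quasi-likelihood test. Their fold changes were 0.95 ± 0.28 for Col6a2, 0.67 ± 0.31 for Col6a3, 0.79 ± 0.34 for Col1a1, 0.90 ± 0.33 for Col1a2 and 0.71 ± 0.39 for Col3a1. Those of collagen IV were -0.18 ± 0.10 for Col4a1 and -0.06 ± 0.10 for Col4a2. Fibroblast markers were above 0 in 11 of 11 (median 0.32), with none called by edgeR or DESeq2 and 2 at an unadjusted p under 0.05 in edgeR, and glucocorticoid-induced genes in 16 of 16 (median 0.43), with 5 called, among them Plin4, Sgk1 and Tsc22d3. With gardiquimod, none of the 10 genes was called between females and males by edgeR or DESeq2, where edgeR called 0.79% of all genes, and 7 had an unadjusted p under 0.05 in edgeR, where 18.8% of all genes did. Col6a1 was -0.40 ± 0.14 in that comparison, and the largest size was that of Col3a1, -1.10 ± 0.38 (adjusted p = 0.128, edgeR). The gardiquimod levels entered the contrasts around which the genes were chosen, so lower levels in gardiquimod females are partly built in. Nothing is read from these counts, sizes or p.

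Within groups, Col6a2 was the gene most like Col6a1 over the 28 agonist libraries. After each group's mean was taken off, its Pearson r was 0.69 and its Spearman rho 0.65, the highest r of 14000 genes with a mean of at least 2 CPM, and r was 0.57 without the 2 libraries farthest from the median. Next came Smoc1, a matricellular calcium-binding protein (r 0.66), Bace2, an aspartyl protease (0.61), A230057D06Rik (0.61), Efemp1, a fibulin of the matrix (0.60), and Cpne7, a copine (0.60). Of the other genes described here, Col1a1 had r 0.45, Col1a2 0.34, Col4a1 0.34, Sparc 0.30, Col3a1 0.29 and Col4a2 0.22, and Col6a3 (-0.08) and Col8a1 (-0.18) were slightly below 0. All values share the library totals and the dissection of each hippocampus, so they describe these libraries only.

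In microglial cultures most of the 10 genes were present as traces. Col6a1 was at 0.0631 to 3.26 CPM over the 24 libraries, which is 1 to 52 counts, and Col6a3, with 0 to 15 counts a library, was too low to be tested. Sparc, at 2.79 to 21.0 CPM, and Col8a1, at 0.306 to 25.2 CPM, covered the widest ranges.

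In males, Tlr7 KO cultures held less of these genes than WT cultures, and in females no gene was called. Col6a1 was at 0.551, 0.176 and 0.0631 CPM in male KO DMSO cultures, against 1.80, 1.23 and 1.77 CPM in male WT DMSO cultures. That is 9, 3 and 1 counts in KO against 29, 19 and 28 counts in WT, with a change of -2.48 ± 0.66 (adjusted p = 0.00795, edgeR). With myelin, Col6a1 was at 0.131, 0.171 and 0.188 CPM in male KO, against 0.968, 1.07 and 0.812 CPM in male WT, a change of -2.41 ± 0.75 (adjusted p = 0.0231, edgeR). All 9 genes tested were lower in every male KO library than in every male WT library of the same treatment. Such a downward separation held for 29.6% of all genes with DMSO and 25.3% with myelin. Of the 9, 7 were called lower with DMSO and 8 with myelin, where 9.32% and 10.6% of all genes were.

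Among the fibrillar collagens, Col1a2 was at 0.980, 0.235 and 0.821 CPM in male KO DMSO cultures, against 5.85, 5.05 and 4.49 CPM in male WT DMSO cultures, a change of -2.83 ± 0.66 (adjusted p = 0.00485, edgeR). Col3a1 changed by -4.07 ± 1.34 (adjusted p = 0.0395, edgeR), with 6, 0 and 4 counts in KO against 30, 124 and 23 counts in WT, so its size rests on few counts. Col1a1 did not pass with DMSO (-1.46 ± 0.69, adjusted p = 0.156, edgeR) and passed with myelin (-2.84 ± 0.76, adjusted p = 0.0128). Col6a2 passed in neither, at -1.43 ± 0.86 (adjusted p = 0.272, edgeR) with DMSO and -2.44 ± 0.93 (adjusted p = 0.0716) with myelin.

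The vascular collagens and Sparc rested on more counts. Col4a1 was at 2.57, 1.41 and 2.65 CPM in male KO DMSO cultures, against 6.03, 10.03 and 6.26 CPM in male WT DMSO cultures, a change of -1.66 ± 0.31 (adjusted p = 0.000435, edgeR). Col4a2 was at 1.16, 0.587 and 1.39 CPM in KO, against 3.73, 5.18 and 3.92 CPM in WT, a change of -1.94 ± 0.43 (adjusted p = 0.00253, edgeR). Sparc was at 5.88, 3.99 and 3.60 CPM in KO, against 16.0, 13.6 and 15.9 CPM in WT, a change of -1.66 ± 0.33 (adjusted p = 0.00137, edgeR). With myelin the changes were -1.99 ± 0.33 for Col4a1, -1.71 ± 0.40 for Col4a2 and -2.02 ± 0.34 for Sparc. Col8a1 was at 0.306, 0.880 and 0.884 CPM in male KO DMSO cultures, against 10.7, 5.31 and 10.6 CPM in WT, a change of -3.58 ± 1.08 (adjusted p = 0.0256, edgeR). With the Ttr level as a covariate, a fit whose limit is given below, that change was 0.15 (adjusted p = 0.926, edgeR). With any 1 library left out, the male KO calls of Col1a2, Col4a1, Col4a2 and Sparc held with both treatments, as did that of Col6a1 with DMSO. With DMSO, the call of Col8a1 was lost without any 1 of 5 of the 6 libraries (edgeR adjusted p 0.0618 to 0.0915), all but WT replicate 2, and that of Col3a1 without WT replicate 2 or any KO library (0.0794 to 0.209). With myelin, the calls of Col6a1 (0.0521 to 0.0727), Col3a1 (0.0543 to 0.108) and Col8a1 (0.0647 to 0.0936) were lost without any 1 of 5 of the 6 libraries, all but WT replicate 3, and that of Col1a1 without WT replicate 2 or KO replicates 2 or 3 (0.0524 to 0.0729).

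In female cultures 0 of 9 genes were called between KO and WT with either treatment, where edgeR called 11.9% of all genes with DMSO and 7.28% with myelin. DESeq2 called 0 as well, and at an unadjusted p under 0.05 edgeR had 1 gene with DMSO and 0 with myelin, where 23% and 18.4% of all genes were. Sparc came nearest with DMSO, at 20.2, 10.8 and 10.3 CPM in female KO against 8.52, 8.32 and 9.19 CPM in female WT (0.66 ± 0.30, adjusted p = 0.189, edgeR). Col6a1 was at 3.26, 1.44 and 0.238 CPM in female KO DMSO cultures, against 0.769, 1.11 and 1.24 CPM in WT, so the female KO libraries spanned the WT ones. The difference of the KO effect, female minus male, was called for 5 of 9 genes with DMSO, where 3.35% of all genes were called in that direction. They were Col6a1 (3.12 ± 0.86, adjusted p = 0.0225, edgeR), Col3a1 (6.42 ± 1.83, 0.0412), Col4a1 (1.86 ± 0.44, 0.0103), Col4a2 (2.53 ± 0.61, 0.0125) and Sparc (2.33 ± 0.45, 0.00300). With myelin it was called for 3 of 9, where 3.51% of all genes were, namely Col1a2 (3.69 ± 0.93, 0.0252), Col4a1 (1.88 ± 0.45, 0.0147) and Sparc (2.26 ± 0.45, 0.00540). This difference was added after the data were seen. Without female KO DMSO replicate 1, the highest in Col6a1 and Col8a1 of its group, the differences of Col6a1 (2.23, adjusted p = 0.0666, edgeR) and Col3a1 (5.31, 0.157) were not called. That of Col6a1 was also lost without male KO DMSO replicates 2 or 3, that of Col3a1 without any 1 of 9 of the 12 libraries, and that of Col1a2 with myelin without any 1 of 6 of the 12 (edgeR adjusted p 0.0524 to 0.0983). Between WT DMSO cultures, females were lower than males in Col4a1 (-1.16 ± 0.29, adjusted p = 0.0281, edgeR) and Col4a2 (-1.48 ± 0.40, 0.0470), 2 of 9 genes where 1.75% of all genes were called lower. The call of Col4a1 was lost without male replicate 2 or female replicates 1 or 2 (edgeR adjusted p 0.0878 to 0.112), and that of Col4a2 without any 1 of 5 of the 6 libraries, all but female replicate 3 (0.0887 to 0.162).

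**Figure D4:**
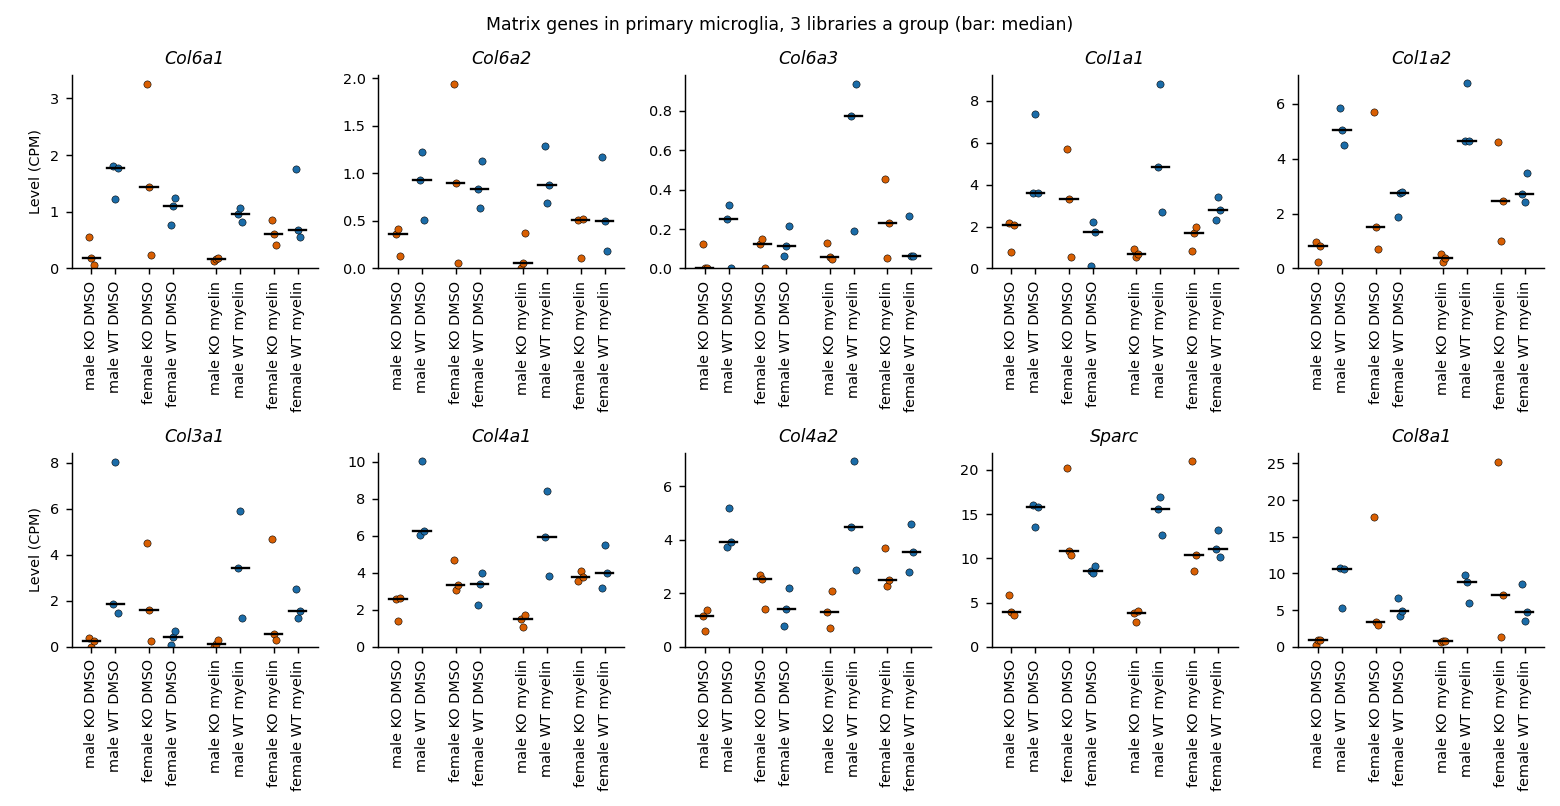
Levels of the 10 genes in CPM (vertical axis) in each primary microglia library, KO in orange and WT in blue, with DMSO groups left and myelin groups right; the horizontal bar is the group's median. Male KO libraries are below male WT libraries of the same treatment for every gene tested, as for Sparc at 3.60 to 5.88 CPM against 13.6 to 16.0 CPM with DMSO.

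Choroid plexus markers were lower along with these genes in male KO cultures, while the endothelial sum was not. The choroid plexus markers summed to 4.72 to 22.9 CPM in male KO cultures, against 136 to 243 CPM in male WT cultures, and 9 of 9 tested were below 0 (median -3.60 with DMSO). Among female KO cultures, replicate 1 was high in both treatments, at 564 CPM with DMSO and 493 CPM with myelin, with the others at 43.9 to 190 CPM, and female WT cultures were at 87.5 to 218 CPM. Fibroblast markers summed to 3.31 to 5.81 CPM in male KO cultures, against 8.43 to 14.7 CPM in male WT cultures. Aebp1 and Cdh1 made up most of that sum, with medians of 3.81 and 3.38 CPM over all cultures. Each other fibroblast marker had a median of at most 0.356 CPM, so the sum is not read as fibroblast content. The fibroblast genes Lum, Igf2, Dpt, Slc22a6 and Mfap4 were at 0 in all male KO libraries, and Dpt and Mfap4 were at 0 in all male WT libraries too. The endothelial genes Cldn5 and Emcn and the pericyte genes Kcnj8 and Higd1b were at 0 in all male libraries, while the endothelial sum was 245 to 268 CPM in male KO, against 221 to 245 CPM in male WT. Slc2a1 (164 to 215 CPM over all cultures) and Flt1 (27.2 to 52.6 CPM) made up most of the endothelial sum, which is not read as endothelial content. Kdr was at 4.68 to 16.6 CPM, Abcb1a at 0.506 to 3.47 CPM and each other endothelial marker at most at 1.55 CPM. Of the mural markers, Anpep was at 411 to 743 CPM, Acta2 at 2.68 to 13.8 CPM and each other at most at 0.695 CPM. The genes at 0 thus do not stand for their whole lists. With the Ttr level as a covariate, a fit added after the data were seen, 1 of 9 genes was called in male KO against WT with each treatment. It was Col4a1, at -1.94 ± 0.51 (adjusted p = 0.0225, edgeR) with DMSO and -2.25 ± 0.51 (0.00784) with myelin. In males Ttr was at 3.74 to 20.1 CPM in KO cultures and 127 to 223 CPM in WT cultures, with no overlap. The fit therefore cannot separate a part that goes with Ttr from the KO difference in males, and no conclusion is drawn from it. The fitted changes of the genes that lost their call are given as a description. Col4a2 was at -1.83 ± 0.70 with DMSO and -1.60 ± 0.65 with myelin, and Col1a1 with myelin at -2.62 ± 1.16, each near its change without the covariate and with a larger SE. Col6a1 was at -0.72 ± 0.78 with DMSO and -0.78 ± 0.81 with myelin, Sparc at -0.66 ± 0.37 and -1.10 ± 0.36, and Col8a1 at 0.15 ± 0.53 and 0.18 ± 0.50. The part of other cell types in the male KO differences was not tested.

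Other matrix genes differed between male KO and WT cultures as well. With DMSO, 10 of 12 interstitial matrix genes were called lower and none higher, among them Tnc, the tenascin of developing and injured tissue, at -1.61 ± 0.45, Vcan, a large proteoglycan, at -0.95 ± 0.16 and Postn, a matricellular protein, at -0.85 ± 0.18. Of 24 collagen-processing genes, 8 were called higher and 7 lower, where 11.6% of all genes were called higher and 9.32% lower. Serpinh1, the collagen chaperone, was lower at -2.04 ± 0.52 and Bmp1, a procollagen protease, at -1.02 ± 0.22, whereas Lox, a collagen cross-linking oxidase, was higher at 0.72 ± 0.17. Of 22 other collagens, Col24a1 (1.83 ± 0.19) and Col23a1 (0.80 ± 0.20) were the 2 called higher and 5 were lower, led by Col16a1 (-1.43 ± 0.21) and Col11a1 (-1.31 ± 0.15). In females with DMSO, Col24a1 was also higher in KO, at 1.31 ± 0.18, and interstitial matrix genes had 1 called higher and 1 lower of 12, near the 5.42% and 6.48% of all genes.

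Myelin left these genes mostly without a call, in cultures where edgeR called 39.3% of all genes in male WT, 38.2% in male KO, 40.4% in female WT and 41.2% in female KO. Most of the genes were traces in these cultures, with large SEs, so the few calls do not show that their levels stayed the same. Col4a2 was called in female WT, at 2.78, 4.58 and 3.53 CPM with myelin against 0.769, 1.40 and 2.20 CPM with DMSO, a change of 1.33 ± 0.41 (adjusted p = 0.0129, edgeR). It was the 1 of 9 genes called there, and 0 of 9 were called by edgeR in male WT, male KO and female KO cultures, with 0, 0 and 1 at an unadjusted p under 0.05, where 45.7%, 45% and 47.7% of all genes were. DESeq2 called 0 in male WT and male KO and 1, Col6a1, in female KO. The Col6a1 changes with myelin were -0.67 ± 0.55 in male WT, -0.60 ± 0.93 in male KO, 0.01 ± 0.55 in female WT and -1.31 ± 0.57 in female KO (adjusted p = 0.0663, edgeR). Same-numbered female KO cultures tended to deviate together, though the labels state no pairing. With the replicate number as a block the female KO change of Col6a1 was called, at -1.16 ± 0.45 (adjusted p = 0.0340, edgeR). It was also called by DESeq2 (adjusted p = 0.0467), and by edgeR with no filter on low counts (0.00485), with the Ttr covariate (0.0120) and without KO DMSO replicate 3 (0.000811). For the genotype by myelin interaction edgeR and DESeq2 called 0 of 9 genes in each sex, where edgeR called 2.56% of all genes in males and 0.919% in females, and 0 had an unadjusted p under 0.05 in edgeR, where 13% and 9.84% of all genes did.

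In PSUK hippocampus, 0 of 10 genes were called for the inhibitor in males, where 0.105% of all genes were, and 0 of 10 in females, where 0.0876% were (edgeR). DESeq2 called 0 in each sex too, and at an unadjusted p under 0.05 edgeR had 0 in males, where 17.6% of all genes were, and 3 in females, where 11.6% were. Between control females and control males edgeR and DESeq2 also called 0 of 10, where edgeR called 0.0642% of all genes, with 0 at an unadjusted p under 0.05, where 7.78% of all genes were. Col6a1 was at 18.7, 13.3, 12.4, 13.6, 19.0 and 12.1 CPM in inhibitor males, against 13.3, 12.1 and 25.4 CPM in control males, a change of -0.06 ± 0.39 (adjusted p = 0.941, edgeR). In females Col6a1 was at 17.5, 31.8, 6.05, 48.1 and 13.2 CPM with the inhibitor, against 9.52, 12.4 and 17.4 CPM in controls, a change of 0.73 ± 0.41 (adjusted p = 0.503, edgeR). The inhibitor females included both the lowest and the highest Col6a1 level of the experiment, and the groups overlapped in both sexes. Col6a2 had the same order over the inhibitor females with a smaller spread: it was at 8.67, 10.4, 4.37, 13.3 and 5.66 CPM in inhibitor females, against 6.13, 7.85 and 12.3 CPM in control females (-0.12 ± 0.32). The Col6a1 share of collagen VI counts was 63.1%, 70.8%, 53.3%, 74.8% and 65.4% in inhibitor females, against 52.2% to 55.1% in control females. In males it was 50.3% to 62.5% with the inhibitor, against 55.4% to 63.9% in controls. Thus 4 of the 5 inhibitor females had a share above every control female, and the male groups overlapped. Age was not balanced between the female groups. In the order above the inhibitor females were 5.50, 6.06, 6.06, 6.85 and 6.85 months old, while 2 control females were 5.50 and 1 was 6.85 months old. The part of age in the share was not tested.

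**Figure D5:**
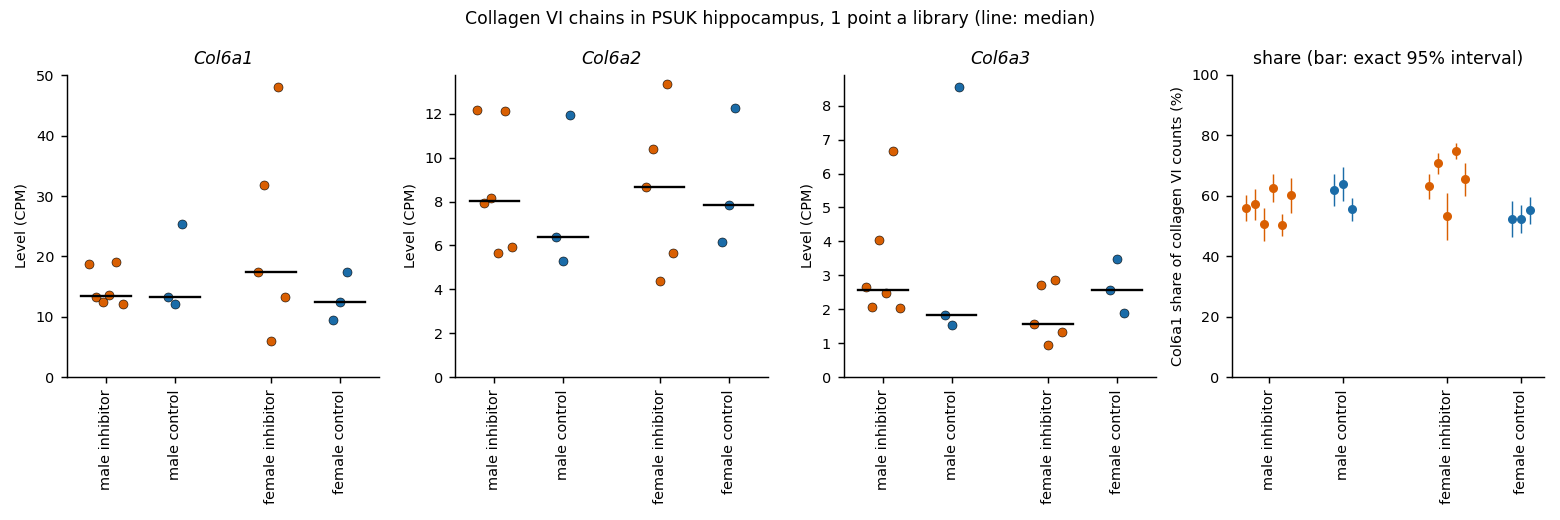
Levels of the collagen VI chains in CPM and the Col6a1 share of collagen VI counts in percent (right panel, bars are exact 95% binomial intervals that cover counting error only) in each PSUK hippocampal library, inhibitor in orange and control in blue. Inhibitor females reach 48.1 CPM of Col6a1 and a share of 74.8%, against at most 17.4 CPM and 55.1% in control females.

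Collagen I leaned the other way in inhibitor females, with ranges that overlapped. Its chain Col1a2 was at 6.47, 11.0 and 23.8 CPM (lowest, median, highest) in inhibitor females, against 16.5, 19.1 and 25.2 CPM in control females. Col1a1 was at 7.50, 4.33, 7.46, 16.9 and 7.44 CPM in inhibitor females, against 12.1, 16.3 and 24.5 CPM in control females, a change of -1.08 ± 0.32 (adjusted p = 0.220, edgeR). In males it was 11.3 to 19.9 CPM with the inhibitor, against 9.79 to 15.1 CPM in controls, a change of 0.46 ± 0.32. The female minus male difference for Col1a1 was -1.54 ± 0.45 (adjusted p = 0.0662, edgeR), and 0 of 10 genes were called for that difference by edgeR, where 2.41% of all genes were. For it, 2 of 10 had an unadjusted p under 0.05 in edgeR, where 25.4% of all genes did, and DESeq2 called 1. Sparc was at 351, 201, 536, 391 and 543 CPM in inhibitor females, against 385, 681 and 602 CPM in control females (-0.48 ± 0.31). Astrocyte markers varied widely over the PSUK libraries, with Gfap at 245 to 1447 CPM and Aldoc at 635 to 1958 CPM. At an unadjusted p under 0.05 edgeR had 0 of them for the inhibitor in females, where 11.6% of all genes were. For the female minus male difference it had 5, where 25.4% were, with none called. The part of astrocyte content in these Sparc values was not tested. Col8a1 was at 13.0, 4.40, 12.6, 20.3 and 16.1 CPM in inhibitor females, against 2.11, 7.79 and 1.33 CPM in control females (1.75 ± 0.70, adjusted p = 0.359, edgeR). Choroid plexus markers summed to 3683 to 5059 CPM in all inhibitor females and to 58.6, 1603 and 43.8 CPM in control females, and the control female highest in that sum was the highest in Col8a1. The inhibitor female with 4.40 CPM of Col8a1 was within the same range of sums as the other inhibitor females. Fibroblast markers, led by Dcn and Aebp1, summed to 79.3 to 120 CPM in inhibitor females, against 78.8 to 121 CPM in control females. At an unadjusted p under 0.05 edgeR had 4 of them for the inhibitor in females, where 11.6% of all genes were. Of these markers edgeR called 0 there and DESeq2 1. For the female minus male difference edgeR had 7, where 25.4% were, and called 2, where 2.41% were. DESeq2 called 5 for that difference. The part of fibroblast content in the Col1a1 values was not tested.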

How the data were processed

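The labels describe 3′ tag libraries (QuantSeq FWD) from nuclear RNA. The authors deposited raw gene counts, 1 table for each of 3 experiments. The submitters' processing notes name GRCm38/mm10 and DESeq2 1.38.3, with aligner and counting strand not given in the sources used here. Samples were grouped by their labels. Each table was fitted alone, so levels set across tables are not a test. Genes passing filterByExpr were fitted with TMM scaling and a robust quasi-likelihood model with 1 mean per group (edgeR 4.0.16, limma 3.58.1, R 4.3.3), 2-sided, with Benjamini-Hochberg adjustment over 17218, 14468 and 17128 genes in the agonist, culture and PSUK tables. SEs are the fold change over the root of F. CPM used the plain library total. Libraries held 14332532 to 23477906 counts. Nothing in the labels says that replicates are separate cultures, so p-values in the cultures measure the spread between these samples.

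Alternatives were DESeq2 1.42.0, other size factors, other count filters, left-out libraries, a replicate block and covariates. The procedure was tested on simulated data. The genes and lists were chosen with earlier results of these data known, and the sex difference of the KO effect and the Ttr covariate in the culture and PSUK tables were added after seeing the data. The gardiquimod against saline results name all 10 genes, whereas other comparisons, among them those of myelin and of the PSUK experiment, name only a part. Listed genes were named where called, up to 3 per direction by size among those with a mean of at least 2 CPM. No library pair was a duplicate by the chi-square of its counts (at least 2.18 per degree of freedom).

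Pairing was looked for in the deviations of libraries from their group means. All 3 same-numbered myelin and DMSO pairs of female KO correlated above 0.1 (r 0.16 to 0.48). Of the other same-numbered pairs, 0 of 9 myelin and DMSO pairs and 3 of 12 KO and WT pairs did, at most 2 in any 1 set of 3. Of 24 differently numbered myelin and DMSO pairs of 1 sex and genotype, 1 was above 0.1, at r 0.31. That value lies within the range of the female KO pairs, so pairing there is not established.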

Additional observations from a re-analysis of the deposited data

Results flagged for a closer look

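Of 60 group values with 4 to 10 libraries checked, 6 had a library standing apart, where chance gives about 1 in 20. In the agonist experiment, saline female replicate 4 stood apart in Col6a1 (33.8 CPM), Col1a2 (51.6 CPM) and Col3a1 (6.63 CPM), and saline male replicate 2 in Col1a1 (15.3 CPM) and Col3a1 (4.49 CPM). In the PSUK experiment, inhibitor female replicate 4 stood apart in Col1a1 (16.9 CPM, next 7.50 CPM).

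The effect of gardiquimod on Col6a1 differed between the sexes by -1.26 on the log2 scale, female minus male, a contrast on which the genes were chosen. The KO effect differed between female and male cultures with DMSO in Col3a1 (6.42), Col4a1 (1.86), Col4a2 (2.53), Col6a1 (3.12) and Sparc (2.33), and with myelin in Col1a2 (3.69), Col4a1 (1.88) and Sparc (2.26), each a log2 difference, female minus male, under an adjusted p of 0.05 in edgeR's test of the difference. With the Ttr level as a covariate, 0 of these differences were called with DMSO and 0 with myelin. Ttr did not overlap between male KO and male WT cultures, so no conclusion is drawn from that fit. Under it Col4a1 was at 2.13 with DMSO and 2.15 with myelin and Col4a2 at 2.42, as large as without it or nearly so but with larger SEs, whereas Col6a1 was at 1.18, Col3a1 at 3.73, Sparc at 1.29 and 1.22 and Col1a2 with myelin at 1.46.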

How the results depend on the processing

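Over the alternatives, 3160 fold changes were labelled the same, 106 moved, 79 weaker, 27 stronger and 2 reversed. For genes called in the main fit outside the gardiquimod contrasts, the same meant that direction and call both held. For genes called in neither fit, and for all genes in the gardiquimod contrasts, it meant a shift of under 1 SE. Among these, calls gained or lost in the gardiquimod contrasts were not counted, nor was the direction of genes not called. Counts below are genes called among those of the 10 that each fit tested. A fit without the count filter or with a library left out can test a gene that the main fit did not, such as Col6a3 in the cultures. A count can therefore include a gene that had no call to lose or gain in the main fit. For gardiquimod in males the count was 1, and 0 with no filter on low counts, with the Ttr covariate and with the fibroblast covariate. It was 0 to 1 when 1 library was left out, with 0 without saline replicates 1 or 6 or gardiquimod replicates 1, 5 or 7. For the sex difference of that response it was 1, 5 with DESeq2, 0 with the fibroblast covariate, and 1 to 2 with 1 library left out. The left-out ranges were 0 to 0 for gardiquimod in females, 1 to 1 for females against males with saline, and 0 to 1 with gardiquimod (main 0).

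In the cultures, the KO against WT count in males was 7 with DMSO (5 to 6 with 1 library left out) and 1 with the Ttr covariate. With myelin it was 8 (5 to 8, with 5 without WT replicates 1 or 2 or KO replicates 2 or 3) and 1 with the Ttr covariate. Col8a1 turned to 0.15 with DMSO and 0.18 with myelin under the Ttr covariate, against -3.58 and -3.43. In females both counts were 0 (0 to 0). The sex difference of the KO effect had 5 with DMSO (3 to 7), 3 with a mean of at least 2 CPM, where 6 genes were tested, and 0 with the Ttr covariate, and 3 with myelin (2 to 5) and 0 with that covariate. It was 3 without male KO DMSO replicates 2 or 3 or female KO DMSO replicate 1. Females against males in WT DMSO cultures had 2 (0 to 2) and 1 with the Ttr covariate. For myelin the counts were 0 (0 to 1) in male WT, 0 (0 to 0) in male KO and 1 (0 to 1) in female WT, the call of Col4a2 being lost without DMSO replicate 1 or myelin replicate 2. In female KO it was 0 (0 to 2), with 1 by DESeq2, 2 with no filter and 1 with the Ttr covariate. With the replicate block it was 3 in female WT and 1, Col6a1, in female KO, and the block changed no other count by over 1.5 times. Both interactions stayed at 0 (0 to 0).

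For PSUK the counts were 0 (0 to 0) in males, females and between control sexes. The sex difference had 0 (0 to 1), with 1 by DESeq2 and 1 with age as a covariate. No paired analysis was possible for hippocampus because the labels give its libraries no replicate numbers. The cause of these changes was not tested.

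Groups of 3 libraries and single-digit counts limit the culture values of Col6a1, Col6a2 and Col3a1. Sex and age change together in the agonist experiment.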
